A study of Mus musculus with 8 samples.

Results

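The genes described here are 35 members of the glycolytic pathway and of the cell's response to low oxygen, taken from a given list of symbols out of 23500 genes measured. They are 18 enzymes from hexokinase to lactate dehydrogenase, 4 kinases that set the flux into and out of the pathway, 2 mitophagy receptors, the transcription factor subunit Hif1a with 2 of its hydroxylases, and 8 further genes known as targets of hypoxia. For each symbol the FPKM (mapped fragments per kilobase of a transcript, relative to all fragments mapped in the library) of its RefSeq transcripts was summed within a library, so levels can be compared between genes per transcript length. All 35 symbols were found, and 33 passed the minimum of 1 FPKM in at least 4 of 8 libraries. Aldoc and Car9 did not. The libraries held polyadenylated RNA from 4 clonal lines (clones 2, 4, 8 and 12) of mesenchymal stem cells from the bone marrow of p53 knockout mice, all with the same genotype and kept below passage 20 in MesenCult medium without further treatment. Each line had been transduced with a retrovirus carrying luciferase (the Luc arm, the control) or cFos, the cDNA of a subunit of the AP-1 transcription factor. There was 1 library per line and arm, so each arm had n = 4 lines, and a library is named below by its arm and clone (Luc 2, cFos 8). Each line descends from 1 cell, and spread between lines is the only replicate error available. The promoter driving the transgene is not given in the labels, and the ages of the mice are not either.

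Glycolysis splits glucose into pyruvate through a chain of enzymes, most of which exist as isozymes encoded by separate genes. Pyruvate is then either reduced to lactate by lactate dehydrogenase or passed to mitochondria, a step that pyruvate dehydrogenase kinases restrain. Hypoxia-inducible factor, of which HIF-1 alpha is the oxygen-labile subunit, is degraded after hydroxylation by the EGLN enzymes when oxygen is present, and when it is stable it activates many of these same genes.

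Promoter sequences are printed for 5 members whose levels are described below. Ldha and Ldhb encode the paired subunits of lactate dehydrogenase, Eno3 and Ero1a differed between the arms once each line was compared with itself, and Pgk1 stands for the abundant enzymes. Each sequence is the 250 bases before the gene's start, in the direction of transcription, from the RefSeq promoter table of build GRCm38.p6. The windows are chrX:106186850-106187099 on the plus strand for Pgk1, chr7:46845554-46845803 on the plus strand for Ldha, chr6:142507958-142508207 on the minus strand for Ldhb, chr11:70656926-70657175 on the plus strand for Eno3 and chr14:45318573-45318822 on the minus strand for Ero1a. Capitals mark the core of the hypoxia response element, ACGTG or GCGTG, read on either strand, so that CACGT and CACGC mark the same letters on the opposite strand and CACGTG holds a match on each.
Pgk1 promoter: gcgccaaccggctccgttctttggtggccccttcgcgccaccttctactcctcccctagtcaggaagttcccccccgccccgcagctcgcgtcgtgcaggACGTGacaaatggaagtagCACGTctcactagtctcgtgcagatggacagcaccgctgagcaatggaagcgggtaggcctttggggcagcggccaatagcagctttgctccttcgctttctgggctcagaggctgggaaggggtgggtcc
Ldha promoter: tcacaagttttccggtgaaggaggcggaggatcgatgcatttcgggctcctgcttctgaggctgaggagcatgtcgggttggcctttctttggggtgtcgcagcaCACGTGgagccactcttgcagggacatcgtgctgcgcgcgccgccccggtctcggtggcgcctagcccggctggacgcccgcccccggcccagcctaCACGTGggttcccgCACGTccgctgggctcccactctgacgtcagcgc
Ldhb promoter: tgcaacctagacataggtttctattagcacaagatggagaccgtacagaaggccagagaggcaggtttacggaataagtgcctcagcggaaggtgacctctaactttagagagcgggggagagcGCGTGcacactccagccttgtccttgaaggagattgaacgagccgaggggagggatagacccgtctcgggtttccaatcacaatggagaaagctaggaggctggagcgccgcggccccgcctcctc
Eno3 promoter: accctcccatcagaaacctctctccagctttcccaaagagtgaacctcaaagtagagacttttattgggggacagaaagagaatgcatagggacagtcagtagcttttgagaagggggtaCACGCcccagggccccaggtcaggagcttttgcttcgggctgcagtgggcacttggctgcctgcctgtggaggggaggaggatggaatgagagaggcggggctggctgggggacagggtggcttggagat
Ero1a promoter: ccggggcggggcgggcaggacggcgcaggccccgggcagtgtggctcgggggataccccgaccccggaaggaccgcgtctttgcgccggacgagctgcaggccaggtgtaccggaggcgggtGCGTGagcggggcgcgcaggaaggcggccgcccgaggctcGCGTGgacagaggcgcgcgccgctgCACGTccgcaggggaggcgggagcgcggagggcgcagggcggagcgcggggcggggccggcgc

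The printed Ldha window held 5 such matches, Ero1a 3, Pgk1 2, and Ldhb and Eno3 1 each, counting both strands. In the printed Ldha window they began 145, 144, 48, 47 and 34 bases before the start. A second Ldha start lies further downstream, and its window held 1 match. The table had entries for 33 of the 35 members, and Bnip3l and Ndrg1 had none. Of the 47 member windows, 38 (80.9%) held the core, against 38.6% of all 32851 windows of the same length. The core contains CG, and the median number of CG pairs was 14 in member windows and 6 in all windows. Among windows with at least 5 CG pairs the core was in 35 of 40 member windows and in 56.8% of all 18260. That minimum does not match the windows in their number of CG pairs, and some windows of the same gene overlap. The AP-1 motif TGANTCA, where N is any base, was in 2 of 47 member windows, those of Aldoa and Car9, which is 4.26% against 6.75% of all windows. No other form of an AP-1 site was searched for. These matches describe letters in a window and show no binding.

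Nearly all enzymes of the pathway had a higher mean level in the cFos arm than in the Luc arm. No single enzyme passed as risen over the pooled lines, and with each line compared with itself only Eno3 of these enzymes did. Of 15 glycolytic enzymes tested, 14 had a positive log2 difference (cFos minus Luc, on log2(FPKM + 0.5)), with a median of 0.60. Over all 33 members tested the median difference was 0.57 and 25 were higher in cFos, against a median of -0.06 and 41.7% of genes higher over the 11162 genes tested. By limma with Benjamini-Hochberg adjustment over all genes, 0 of 33 members rose at an adjusted p under 0.05, where 2.92% of all genes did, and 1 member, Ldhb, fell, where 2.62% did. At an unadjusted p under 0.05, 12 members were higher (9.06% of all genes) and 1 was lower (11.1%). With the clone as a block, so that each line is compared with itself, limma called 2 members risen, Eno3 and Ero1a (4.51% of all genes), and 1 fallen, Ldhb (4.28%). In that fit 14 members were higher at an unadjusted p under 0.05 (11.7% of all genes) and 2, Hk2 and Ldhb, were lower (14.3%). In 4 members every cFos library was above every Luc library, namely Hk1, Pfkp, Eno2 and Bnip3l, and 5.86% of all genes behaved so. Only Ldhb among the members tested had every cFos library below every Luc library, as 7.8% of all genes did. In bulk RNA, fewer cells of a kind and less RNA per cell cannot be told apart.

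The first step, phosphorylation of glucose, is carried out by hexokinases. Hk1, the widely expressed form, stood at 44.1, 45.8, 27.3 and 45.5 FPKM in the Luc libraries of clones 2, 4, 8 and 12, and at 56.7, 66.8, 59.1 and 47.0 FPKM in the cFos libraries of the same clones. Every cFos level lay above every Luc level, though cFos 12 exceeded the highest Luc library by little. The log2 difference of Hk1 was 0.51 (SE 0.19, limma adjusted p = 0.177). Hk2, the inducible form, was less abundant, at 5.62, 8.38, 6.83 and 10.5 FPKM in Luc and 3.52, 6.28, 4.74 and 7.97 FPKM in cFos. It was lower in cFos in each of the 4 clones, but the arms overlapped and the difference of -0.46 (SE 0.26) had a limma adjusted p of 0.368, or 0.0651 with the clone as a block. Gpi1, which turns glucose 6-phosphate into fructose 6-phosphate, averaged 83.6 ± 24.8 FPKM in Luc and 122 ± 20.0 FPKM in cFos (SD, n = 4).

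Phosphofructokinase, the committed step, has 3 subunit genes. The liver-type subunit Pfkl was the most abundant, at 31.8, 87.2, 34.3 and 61.2 FPKM in Luc and 42.9, 62.7, 60.5 and 48.8 FPKM in cFos. Its means were nearly equal (53.6 and 53.7 FPKM), while the Luc lines were spread 2.74-fold and the cFos lines 1.46-fold. Muscle-type Pfkm ran from 21.7 to 26.0 FPKM in Luc and from 22.3 to 28.3 FPKM in cFos. Platelet-type Pfkp was the scarcest and was higher in cFos in all 4 clones, at 7.39, 8.76, 4.17 and 13.0 FPKM in Luc and 13.7, 13.3, 13.1 and 17.8 FPKM in cFos. Its arms barely failed to overlap, with Luc 12 just below cFos 8. The log2 difference of Pfkp was 0.85 (SE 0.29), with a limma adjusted p of 0.137, or 0.0501 with the clone as a block.

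The steps from aldolase to pyruvate kinase, with Gpi1 before them and Ldha after, are served by 9 abundant genes, those whose mean over all libraries was at least 100 FPKM, a threshold chosen after the values were seen. They shared one pattern: the lowest levels were in Luc 2 and Luc 8. Aldoa, the main aldolase, stood at 257, 517, 258 and 402 FPKM in the Luc libraries of clones 2, 4, 8 and 12 and at 621, 548, 798 and 487 FPKM in cFos. Its paralogue Aldoc was at 0.0170 to 0.187 FPKM in Luc and 0.0668 to 0.261 FPKM in cFos and was not tested. Gapdh, the glyceraldehyde 3-phosphate dehydrogenase often used as a reference gene, stood at 1291, 2300.4, 942 and 2117 FPKM in Luc and 1737, 2265, 2571 and 2082 FPKM in cFos. Levels of Gapdh thus differed 2.44-fold between Luc lines and 1.48-fold between cFos lines. Pgk1, the first ATP-forming enzyme of the pathway, stood at 228, 681, 189 and 593 FPKM in Luc and 406, 585, 556 and 813 FPKM in cFos. Tpi1, Pgam1 and Pkm, which encode triose phosphate isomerase, phosphoglycerate mutase and pyruvate kinase, repeated this arrangement, with Luc 2 and Luc 8 at 252 and 243, 166 and 134, and 419 and 236 FPKM, against 489 to 532, 351 to 388 and 666 to 896 FPKM in the other Luc libraries. Their cFos libraries ran from 425 to 554, 321 to 441 and 657 to 945 FPKM.

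Over the 9 enzymes the pooled log2 differences ran from 0.46 to 0.81 and the limma adjusted p-values from 0.112 to 0.440 (0.131 to 0.342 with the clone as a block). Both Luc 2 and Luc 8 were below both Luc 4 and Luc 12 in 9 of the 9 enzymes and in 23 of 33 members, against 20.2% of all genes tested. Egln3 is among the 23 and passed the filter only through the clones where it was high. Levels in the cFos lines lay closer together. The median ratio of the highest to the lowest line was 2.44 in Luc and 1.44 in cFos for the 9 enzymes, 2.19 and 1.52 for the 33 members, and 1.55 and 1.42 for all genes. The range was wider in Luc than in cFos in 9 of the 9 enzymes and in 23 of 33 members (69.7%). It was so in 63.3% of all genes, so the count of members was near that of all genes.

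**Figure D1:**
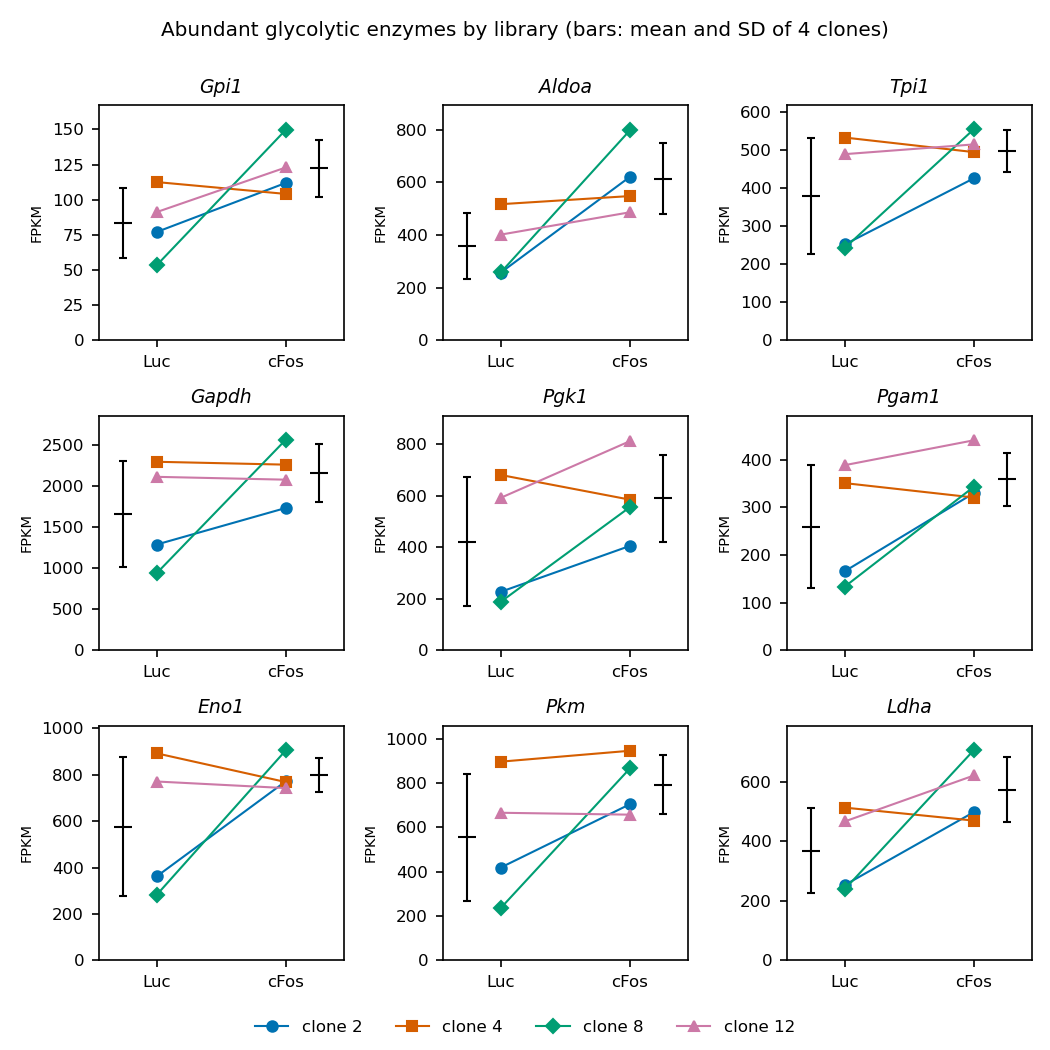
FPKM (vertical axis, linear from 0) of the 9 abundant enzymes in the Luc and cFos libraries; lines join the libraries of 1 clone, and bars beside them give the mean and SD of 4 clones. Clones 2 and 8 are the lowest in Luc in all 9 enzymes, and the range of the 4 clones is narrower in cFos than in Luc in all 9 as a ratio of the highest to the lowest.

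Summed over the 18 enzymes, the pathway had 3534, 7081, 2786 and 6391 FPKM in the Luc libraries of clones 2, 4, 8 and 12. The cFos sums were 5815, 6767, 7643 and 6738 FPKM. As a share of all FPKM in the library these were 0.765%, 1.46%, 0.649% and 1.39% in Luc and 1.20%, 1.46%, 1.59% and 1.50% in cFos. The cFos shares of clones 4, 8 and 12 exceeded the highest Luc share by little, and that of cFos 2 lay above Luc 2 and Luc 8 and below Luc 4 and Luc 12.

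Seen within each clone, the difference between the arms over the members was large in clones 2 and 8, small in clone 12 and near 0 in clone 4. Each difference subtracts a single Luc library, and Luc 2 and Luc 8 are the libraries already described as low. The differences by clone are therefore not separate from that pattern in Luc. The median log2 difference of the 33 members for clones 2, 8, 12 and 4 was 0.76, 0.86, 0.23 and -0.11, where the medians over all genes were -0.06, -0.02, -0.02 and -0.09. Members with a higher level in cFos numbered 27, 23, 24 and 14 of 33 in that order, where 45.3%, 48.0%, 48.2% and 37.9% of all genes were higher, so that clone 4 was near the share of all genes. The 9 abundant enzymes differed by 0.43 to 1.27 in clone 2 and by 1.19 to 1.87 in clone 8. Their differences were -0.05 to 0.46 in clone 12 and -0.22 to 0.08 in clone 4. Clone 4 had the lowest of the 4 differences in 20 of 33 members, against 17.8% of all genes. In 8 members, Gpi1, Tpi1, Pgk1, Pgam1, Ldha, Pdk1, Bnip3 and Egln1, the cFos library was higher in clones 2, 8 and 12 and lower in clone 4, as in 3.65% of all genes. In 9 members the cFos library was higher in all 4 clones (15.3% of all genes), namely Hk1, Pfkp, Aldoa, Eno2, Eno3, Bnip3l, Ankrd37, Ero1a and P4ha1, and in 3, Hk2, Ldhb and Pdk3, it was lower in all 4 (20.9%).

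The test of a separate response in clone 4 did not compare each line with itself, and no member passed it after adjustment. In limma's interaction of arm with clone 4, 0 of 33 members had an adjusted p under 0.05 (0% of all genes), and at an unadjusted p under 0.05 there was 1, Bnip3 (0.233% of all genes). Bnip3 differed by 1.14 less on the log2 scale in clone 4 than in the other clones (by limma, an unadjusted p of 0.0399 and an adjusted p of 1.00). For the 9 enzymes the interaction ran from -1.17 to -0.64 with unadjusted p-values of 0.0870 to 0.348 by limma. Clone 4 has 1 library in each arm and is assumed in that fit to vary like the other clones. Since the fit does not pair the lines, differences in level among the other clones enter its error. It therefore cannot settle whether clone 4 responded apart from the others. Clone 4 was also singled out with its values known. Without clone 4, the 9 enzymes differed by 0.62 to 1.06 with limma adjusted p-values of 0.124 to 0.439, and without clone 8 by 0.13 to 0.54 with 0.293 to 0.814. Differences between the clones themselves, tested by limma with an F test over the 4 clones beside the arm, gave 0 of 33 members at an adjusted p under 0.05 (0.484% of all genes), with Eno3 the lowest at 0.0711, and 10 at an unadjusted p under 0.05 (16.5%). Egln3 is among the 10 and passed the filter only through the clones where it was high.

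**Figure D2:**
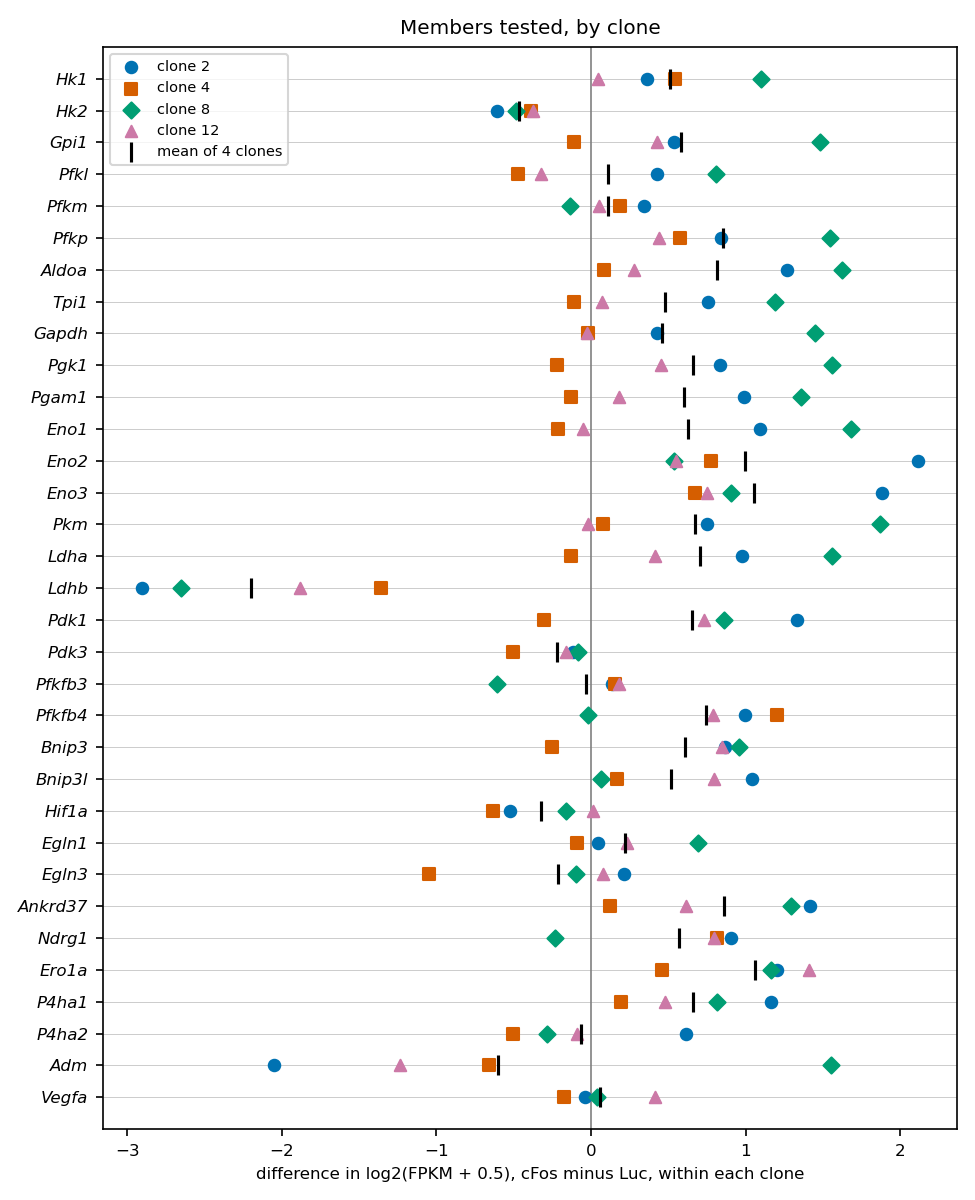
Difference in log2(FPKM + 0.5), cFos minus Luc, in each of 4 clones (points) and their mean (bar) for the 33 members tested. Clone 4 lies lowest of the clones in 7 of the 9 abundant enzymes and clone 8 highest in all 9, and Ldhb lies well left of 0 in all 4 clones.

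Other measures moved with some of these libraries. Summed FPKM of 9 proliferation markers was 524, 532, 263 and 494 in the Luc libraries of clones 2, 4, 8 and 12 and 276, 411, 483 and 382 in cFos, so Luc 8 was lowest while Luc 2 was near Luc 4. Fos itself, the transduced gene, stood at 76.2, 41.1, 302 and 43.5 FPKM in Luc and 589, 675, 1019 and 505 FPKM in cFos, so the Luc library with the most Fos was Luc 8. Their part in the levels of the enzymes was not tested.

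Enolase, which makes phosphoenolpyruvate, has 3 isozymes among the members. Eno1, the general form, stood at 362, 892, 283 and 771 FPKM in Luc and 772, 768, 906 and 742 FPKM in cFos, so that the cFos lines lay within a factor of 1.22 of each other and the Luc lines within 3.16. A second set of 2 transcripts, named Eno1b, has an entry that overlaps the Eno1 locus (mm9 chromosome 4, 149611306 to 149622982), and how reads were divided between Eno1 and Eno1b is uncertain. Eno1b averaged 51.1 ± 27.8 FPKM in Luc and 116 ± 45.1 in cFos (SD, n = 4), with a log2 difference of 1.25 (limma adjusted p = 0.145, and 0.0282 with the clone as a block). For Eno1 the log2 difference was 0.62, and of Eno1 and Eno1b summed 0.70.

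Eno3, the muscle form, lies on mm9 chromosome 11 from 70470678 to 70476015 and was higher in cFos in every clone. It stood at 10.2, 35.9, 6.38 and 27.3 FPKM in Luc and at 38.8, 57.6, 12.4 and 46.3 FPKM in cFos. The arms overlapped because clone 8 was low and clone 4 high in both, and the ratios within clones were 3.81, 1.60, 1.94 and 1.70. Its log2 difference was 1.05, with a limma adjusted p of 0.382 (SE 0.61) over the pooled lines and 0.0334 (SE 0.22) with the clone as a block. Eno2, the neuronal form, was scarce, at 2.25, 3.86, 3.52 and 2.95 FPKM in Luc and 11.4, 6.95, 5.33 and 4.55 FPKM in cFos. The arms did not overlap, cFos 2 was the highest, and the difference of 0.99 (SE 0.28) had a limma adjusted p of 0.0767, or 0.0851 with the clone as a block. For pyruvate kinase, the transcript of the M1 form made up 13.6%, 25.8%, 19.2% and 18.0% of Pkm FPKM in the Luc libraries and 25.3%, 21.8%, 18.7% and 23.6% in cFos, with overlapping arms.

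Lactate dehydrogenase held the one call that passed over the pooled lines. Ldhb, which encodes the heart-type subunit, lies on mm9 chromosome 6 from 142438769 to 142456463 and stood at 105, 73.5, 102 and 222 FPKM in the Luc libraries of clones 2, 4, 8 and 12. In cFos it stood at 13.6, 28.4, 15.8 and 59.8 FPKM. The highest cFos library, cFos 12, was below the lowest Luc library, Luc 4, and both arms had their highest level in clone 12. Ldhb fell by 2.20 on the log2 scale (SE 0.48, limma adjusted p = 0.0329, and 0.00699 with the clone as a block). Ratios of cFos to Luc were 0.129, 0.387, 0.155 and 0.269 within clones 2, 4, 8 and 12, so the fall was smallest in clone 4. The interaction with clone 4 was 1.13, in a fit that does not pair the lines and cannot settle whether clone 4 differed. The pooled call was narrow. The limma adjusted p passed without Luc 4 (0.0460), without cFos 12 (0.0110) and without clone 12 (0.0114), and did not pass without any 1 of the other 6 libraries, where it ran from 0.0552 without Luc 8 to 0.0990 without cFos 2, or with all genes tested whatever their level (0.0794). Without clones 2, 4 and 8 in turn it was 0.194, 0.111 and 0.115. The direction was the same in all of these.

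Ldha, which encodes the muscle-type subunit that favours lactate formation, lies on mm9 chromosome 7 from 54101174 to 54110997 and was higher in cFos in 3 of 4 clones, all but clone 4. It stood at 253, 513, 239 and 466 FPKM in Luc and 498, 469, 706 and 621 FPKM in cFos. Its arms overlapped, and the difference of 0.70 (SE 0.28) had a limma adjusted p of 0.197. Of the summed FPKM of the pair, Ldhb made up 29.3%, 12.5%, 29.9% and 32.3% in the Luc libraries and 2.65%, 5.71%, 2.19% and 8.79% in the cFos libraries. The Luc library of clone 4 was apart from the other Luc libraries, since it had both the lowest Ldhb and the highest Ldha.

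Ratios of isozymes hardly depend on the scaling of a library, and 12 pairs were compared by a two-sided exact permutation test over the 70 arrangements of 4 against 4. Of these, 0 passed after Benjamini-Hochberg adjustment over the 12, and with a smallest possible p of 0.0286 the adjustment can pass only if many pairs reach it. That smallest p was reached at an unadjusted level by 3 pairs. The log2 ratio of Ldhb over Ldha was lower in cFos, with a mean difference of -2.90, with values within clones of -3.88, -1.23, -4.22 and -2.30 (exact permutation p = 0.0286, adjusted p = 0.114). Pdk3 over Pdk1 differed by -0.87 and P4ha2 over P4ha1 by -0.73, with the same exact permutation p-values. For Hk2 over Hk1 the difference was -0.98 (exact permutation p = 0.0571, adjusted p = 0.137), and Hk2 made up 11.3% to 20.0% of the pair in Luc and 5.84% to 14.5% in cFos. Pfkp over Pfkl (0.74) and Pfkfb4 over Pfkfb3 (0.78) were higher in cFos in all 4 clones, with overlapping arms and exact permutation p-values of 0.143 and 0.200. Eno2 over Eno1 (0.37), Eno3 over Eno1 (0.43), Egln3 over Egln1 (-0.43), Bnip3l over Bnip3 (-0.09) and Pfkm over Pfkl (0.00) were each higher in some clones and lower in others, with exact permutation p-values of 0.457 and above. Aldoc over Aldoa differed by -0.70 (exact permutation p = 0.0571), but Aldoc is near 0 and the ratio there rests on the added 0.5.

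**Figure D3:**
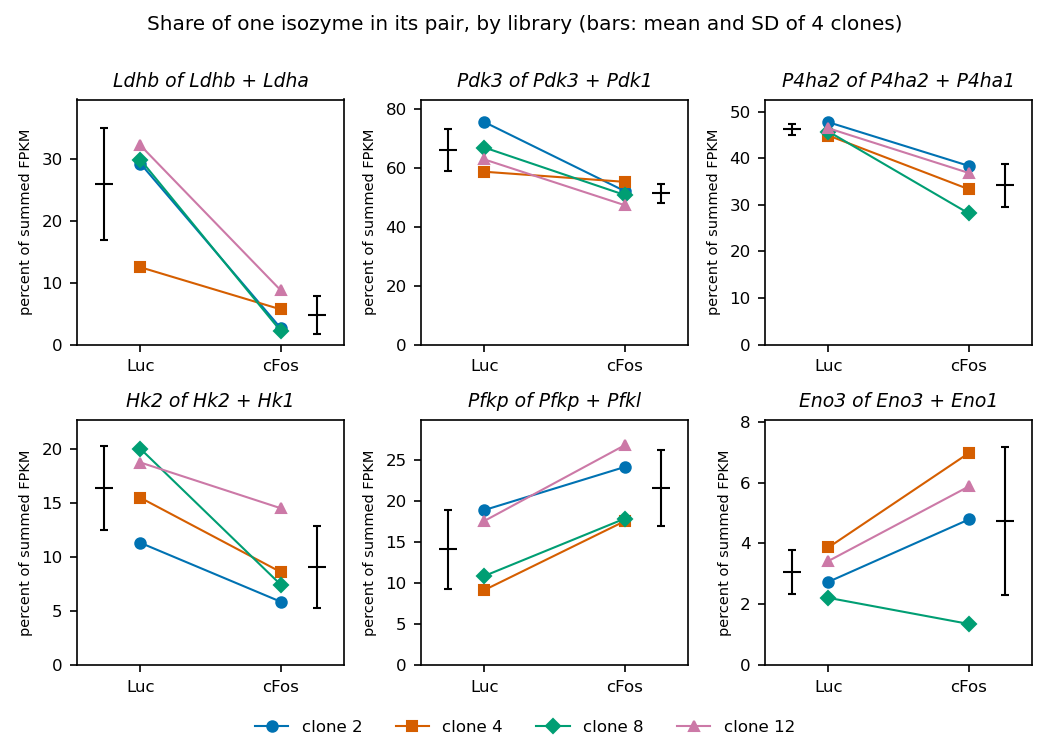
Share (percent of the pair's summed FPKM, axis from 0) of the first-named isozyme in 6 pairs, by arm; lines join the libraries of 1 clone, and bars give the mean and SD of 4 clones. The Ldhb share is lower in cFos in all 4 clones, the P4ha2 shares are tightly grouped in Luc at 44.9% to 47.7%, and the Eno3 share is lower in cFos in clone 8 alone.

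Among the kinases that set flux, Pdk1 and Pdk3 inactivate pyruvate dehydrogenase and keep pyruvate from mitochondria. Pdk1 stood at 7.52, 22.7, 13.3 and 18.2 FPKM in Luc and 19.7, 18.3, 24.6 and 30.7 FPKM in cFos, with cFos lower in clone 4 alone. Pdk3 ran from 23.3 to 32.4 FPKM in Luc and from 21.4 to 27.6 in cFos and was lower in cFos in all 4 clones. Pdk3 therefore made up 58.8% to 75.6% of the pair in Luc and 47.4% to 55.3% in cFos, ranges that did not overlap. Neither gene passed by limma (adjusted p = 0.290 and 0.441). Pfkfb3 and Pfkfb4 make and remove fructose 2,6-bisphosphate, the activator of phosphofructokinase. Pfkfb4 stood at 3.22, 2.51, 2.45 and 4.20 FPKM in Luc and 6.92, 6.42, 2.41 and 7.61 FPKM in cFos, so it was higher in clones 2, 4 and 12 and level in clone 8. Its difference was 0.74 (SE 0.33, limma adjusted p = 0.249), and without clone 8 the limma adjusted p was 0.0435. Pfkfb3 was between 2.18 and 5.84 FPKM everywhere, with a difference of -0.03.

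The mitophagy receptors Bnip3 and Bnip3l, which mark mitochondria for removal and are textbook targets of hypoxia, were both higher in mean level in cFos. Bnip3l stood at 40.3, 51.2, 51.7 and 44.4 FPKM in Luc and 83.3, 57.5, 54.2 and 77.2 FPKM in cFos. Every cFos library was above every Luc library, with clones 4 and 8 close to the Luc range, and the difference was 0.52 (SE 0.17, limma adjusted p = 0.126). Bnip3 stood at 30.3, 55.9, 43.8 and 42.0 FPKM in Luc and 55.7, 47.0, 85.5 and 75.9 FPKM in cFos, higher in every clone but clone 4, with a difference of 0.60 (SE 0.24, limma adjusted p = 0.193).

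Hif1a itself was not higher in cFos. It stood at 46.2, 82.0, 53.9 and 71.7 FPKM in Luc and 31.9, 52.7, 48.2 and 72.4 FPKM in cFos, lower in clones 2, 4 and 8 and level in clone 12. Its difference was -0.33 (SE 0.26, limma adjusted p = 0.549), and the arms overlapped. RNA levels carry no measure of the HIF-1 alpha protein, which is set mainly by degradation. Egln1, the main oxygen-sensing hydroxylase, ran from 12.6 to 22.6 FPKM in Luc and 16.9 to 25.9 in cFos, with a difference of 0.22. Egln3, its inducible relative, stood at 0.409, 4.89, 0.918 and 3.34 FPKM in Luc and 0.555, 2.11, 0.823 and 3.55 FPKM in cFos. It was low in clones 2 and 8 and higher in clones 4 and 12 in both arms. The difference of Egln3 between the arms was -0.21 (SE 0.63), and the limma adjusted p between the clones was 0.106. Egln3 passed the filter only through the libraries of clones 4 and 12, where it was high, so no conclusion on the clones is drawn from that test.

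Of the other hypoxia targets, Ero1a, the oxidase that drives disulphide formation in the endoplasmic reticulum, passed with the clone as a block. It lies on mm9 chromosome 14 from 45902762 to 45938247 and stood at 14.6, 15.2, 12.0 and 28.2 FPKM in Luc and 34.3, 21.2, 27.6 and 75.6 FPKM in cFos. Clone 12 was highest in both arms, Luc 12 overlapped the cFos range, and the ratios within clones were 2.35, 1.39, 2.30 and 2.69. The difference was 1.06 (SE 0.39, limma adjusted p = 0.171), and comparing within clones by the block gave an adjusted p of 0.0171 (SE 0.17). The block calls of Ero1a and Eno3 were not tried with libraries or clones left out. P4ha1 and P4ha2 encode catalytic subunits of the prolyl hydroxylase that stabilises collagen. P4ha1 stood at 40.8, 86.3, 49.5 and 92.9 FPKM in Luc and 91.9, 98.6, 87.2 and 129.7 FPKM in cFos, higher in every clone (difference 0.66, SE 0.27, limma adjusted p = 0.221). P4ha2 ran from 37.2 to 80.5 FPKM in Luc and 34.2 to 75.7 in cFos, with a difference of -0.07. The share of P4ha2 in the pair was 47.7%, 44.9%, 45.7% and 46.4% in Luc and 38.4%, 33.4%, 28.2% and 36.9% in cFos, lower in each clone.

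Ankrd37, a small ankyrin repeat protein, was scarce and lowest in Luc 2 and Luc 8, at 0.669 and 0.788 FPKM, against 3.09 and 2.27 in Luc 4 and Luc 12 and 2.62, 3.41, 2.65 and 3.73 FPKM in the cFos libraries of clones 2, 4, 8 and 12. The same pair of Luc libraries was low here as among the abundant enzymes, and the difference between the arms was 0.86 (SE 0.37, limma adjusted p = 0.231). Ndrg1, a stress-induced growth regulator, was at 6.07, 6.09, 13.8 and 8.42 FPKM in Luc and 11.8, 11.1, 11.7 and 15.0 FPKM in cFos, higher in cFos in every clone but clone 8. It passed by limma only when Luc 8 was left out (adjusted p = 0.0333). Adm, which encodes the vasodilator adrenomedullin, went in opposite directions between clones, at 21.1, 23.1, 7.21 and 10.1 FPKM in Luc and 4.70, 14.4, 22.1 and 3.99 FPKM in cFos, lower in clones 2, 4 and 12 and higher in clone 8. Vegfa, the vascular growth factor, was steady, from 38.9 to 63.6 FPKM in Luc and 41.1 to 56.3 in cFos, with a difference of 0.06 (SE 0.18). Car9, a carbonic anhydrase widely used as a marker of hypoxia, was at 0.205 to 0.517 FPKM in Luc and 0.295 to 1.01 in cFos and reached 1 FPKM in 1 library alone.

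Other genes of the same processes were taken from 3 further lists. Of 49 other genes of glycolysis, the pentose phosphate pathway and pyruvate use, 33 were tested and 0 rose or fell by limma at an adjusted p under 0.05 (2.92% and 2.62% of all genes did), and their median difference was -0.03. At an unadjusted p under 0.05, 2 were higher and 4 lower, where 9.06% and 11.1% of all genes were, so the lower count was near that of all genes and the higher count below it. With the clone as a block 1 rose, Pck2, and 1 fell, Mpc2, where 4.51% and 4.28% of all genes did. Mpc2, a subunit of the carrier that brings pyruvate into mitochondria, had the smallest adjusted p, at 27.8 ± 5.07 FPKM in Luc and 19.4 ± 2.11 in cFos (SD, n = 4), a difference of -0.50 (limma adjusted p = 0.0978, and 0.0376 with the block). G6pdx, the entry enzyme of the pentose phosphate pathway, was at 71.1 ± 19.8 and 44.1 ± 13.2 FPKM (limma adjusted p = 0.175), lower in 3 of 4 clones. Pdp2, a phosphatase that reactivates pyruvate dehydrogenase, had a difference of -0.50 (limma adjusted p = 0.129), and Pfkfb1, a further enzyme of fructose 2,6-bisphosphate, of -0.43 (0.192). Pck2, the mitochondrial phosphoenolpyruvate carboxykinase, was at 31.8 ± 16.5 and 51.8 ± 13.0 FPKM (limma adjusted p = 0.212, and 0.0453 with the block). Slc16a3, the lactate exporter MCT4, was chosen after its values were seen, at 0.915, 36.3, 3.74 and 24.6 FPKM in Luc and 25.0, 33.5, 15.1 and 20.5 FPKM in cFos. Its low libraries were Luc 2 and Luc 8, and its difference was 1.42 (SE 0.92, limma adjusted p = 0.439). This arrangement was not general in the list, as in Pcx, Rpia and Mpc1 both Luc 2 and Luc 8 were above Luc 4 and Luc 12.

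A second list held 50 other hypoxia response genes, of which 44 were tested. By limma 4 rose and 0 fell, where 2.92% and 2.62% of all genes did, and the median difference was 0.23. At an unadjusted p under 0.05, 10 were higher and 5 lower, where 9.06% and 11.1% of all genes were, so the lower count was near that of all genes. Bhlhe40, a transcriptional repressor of the circadian and hypoxic responses, stood at 6.91, 13.0, 8.70 and 12.5 FPKM in Luc and 27.8, 27.5, 26.5 and 32.2 FPKM in cFos, well apart. It rose by 1.47 on the log2 scale (SE 0.20, limma adjusted p = 0.00469). Its relative Bhlhe41 rose from 0.994 ± 0.321 to 4.14 ± 1.44 FPKM (SD, n = 4, limma adjusted p = 0.0131). Insig2, a regulator of sterol synthesis, rose from 16.3 ± 1.28 to 22.8 ± 1.60 FPKM (limma adjusted p = 0.0460), a call that was lost without any 1 of the 8 libraries (adjusted p of 0.0590 without Luc 8 to 0.131 without cFos 2). These 3 genes were higher in cFos in all 4 clones, clone 4 included. Bhlhe41 lost its call without cFos 2 (limma adjusted p = 0.0558), without clone 2 (0.0972) and without clone 4 (0.0936). With the clone as a block, 6 genes of the list rose, Stc2 and Vldlr in addition, and 3 fell, Ppp1r3c, Hmox1 and Rbpj, where 4.51% and 4.28% of all genes did.

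**Figure D4:**
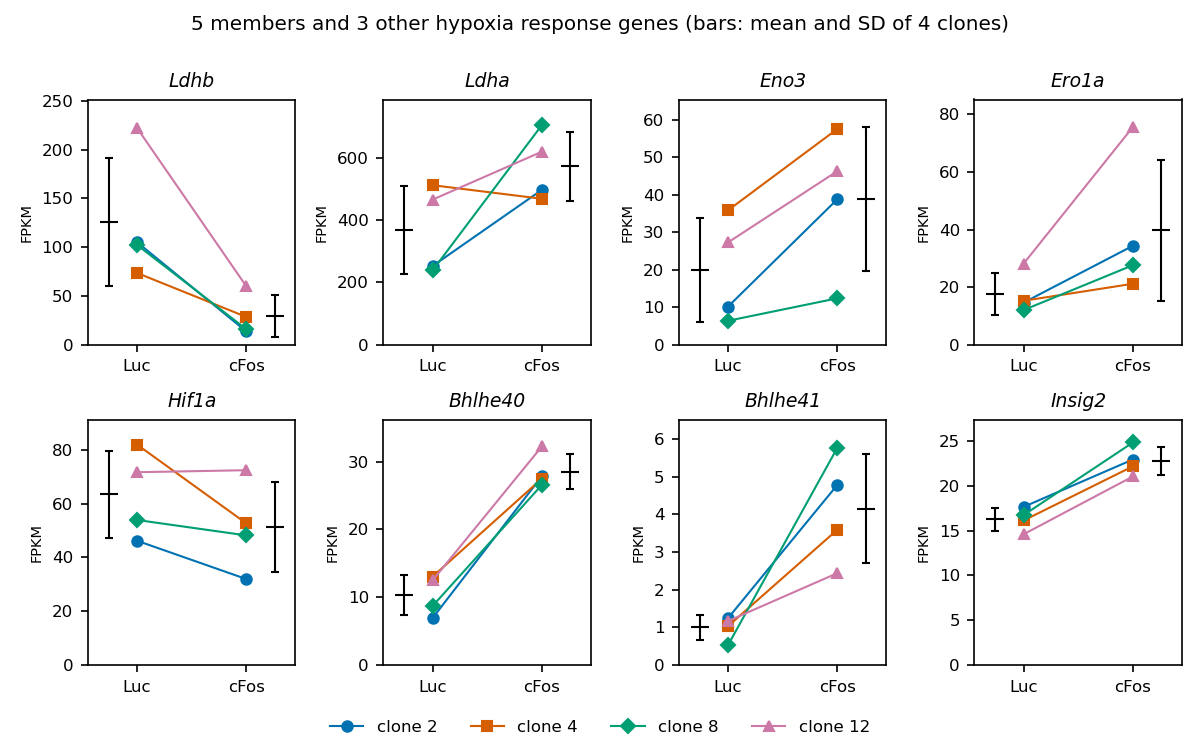
FPKM (vertical axis, linear from 0) by arm of Ldhb, Ldha, Eno3, Ero1a and Hif1a and of 3 other hypoxia response genes; lines join the libraries of 1 clone, and bars give the mean and SD of 4 clones. Ldhb is lower and Bhlhe40, Bhlhe41 and Insig2 are higher in cFos in all 4 clones with no overlap of the arms, while Eno3 and Ero1a are higher in all 4 clones from different Luc levels.

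The third list held 25 regulators of HIF, of which 22 were tested and 0 rose or fell by limma with or without the clone as a block. At an unadjusted p under 0.05, 0 were higher and 3 were lower, where 9.06% and 11.1% of all genes were, so the lower count was near that of all genes. These were Vhl, the ubiquitin ligase subunit that recognises hydroxylated HIF (16.3 ± 2.73 FPKM in Luc and 11.5 ± 1.65 in cFos, SD, n = 4, limma adjusted p = 0.130), the coactivator Ep300 (15.2 ± 1.82 and 11.2 ± 1.53 FPKM, 0.130) and Os9 (45.3 ± 8.65 and 33.7 ± 2.98 FPKM, 0.187). Hif1an, the asparagine hydroxylase, was at 7.15 ± 1.16 and 5.81 ± 0.672 FPKM (limma adjusted p = 0.383). All 4 were lower in cFos in each of the 4 clones, but they were named for the smallest adjusted p of the list. Of the 22 tested, only these 4 and Rbx1 were lower in each clone, which is near the 20.9% of all genes.

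The cell identity and the transgene were checked in the same tables. Of 14 markers of stromal cells, 10 were at 1 FPKM or more in every library, and Thy1, Eng, Nt5e and Lepr, all of them commonly used for these cells, were under 1 FPKM in some. Among the stromal markers, Vim and Pdgfrb were higher and Cxcl12 was lower in every cFos library than in every Luc library. The arms overlapped in the other stromal markers. Markers of blood cells summed to 1.68 to 2.94 FPKM and of endothelium to 0.0605 to 0.432 FPKM per library. Sums were 0.639 to 4.77 FPKM for skeletal muscle, 0.0687 to 2.68 FPKM for epithelium and 0.230 to 2.86 FPKM for erythroid cells. Trp53, the gene labelled as knocked out, was read at 6.17 to 9.28 FPKM in all libraries, and which exons these reads cover is not given by the tables, so its level checks nothing. Sequenced depth, estimated from coverage and length, was 6.93 to 9.14 gigabases per library.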

How the data were processed

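RNA of 8 libraries was analysed, 4 clonal lines in a Luc and a cFos arm. Per the submitters' processing notes, the authors used CASAVA 1.8.2, TopHat and Cufflinks with build mm9. No version or option of the last 2 is given in the sources used here. The deposited tables, per the file headers, give FPKM with confidence limits, coverage (a signal, the mean depth per base) and transcript length for 30769 RefSeq transcript entries. No read counts are given, so no counting interval was computed. Symbols came from RefSeq for 30227 entries and from GENCODE M21 for 180, and 362 stayed unnamed. Entries were summed by symbol to 23503 genes, and 3 with a status other than OK were left out.

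The arms were compared by limma 3.58.1 under R 4.3.3 (lmFit, eBayes with a trend, two-sided) on log2(FPKM + 0.5) for the 11162 genes that reached 1 FPKM in 4 or more libraries, with Benjamini-Hochberg adjustment over all of them and a threshold of 0.05. Fold changes on this scale understate those of low genes. The code was tested on simulated data. The same clone number marks the same clonal line in both arms, so the lines are paired, and deviations from the arm means correlated at 0.174, 0.593, 0.349 and 0.437 in clones 2, 4, 8 and 12. The fit with the clone as a block is given beside the pooled one where it changes a call. P-values measure the spread between these lines only. All members, up to 4 genes of each other list with the smallest adjusted p, Fos and Trp53 were to be named, and 1 of these genes is not reported here. Members, lists and tests were chosen with earlier results of these data known. Alternatives were other pseudocounts, filters and scalings, the largest entry per gene, the block, and leaving out libraries or clones.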

Additional observations from a re-analysis of the deposited data

Results flagged for a closer look

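In 2 of the 70 groups of 4 libraries formed by gene and arm, 1 library lay far from the other 3, measured by its gap to the nearest library over the whole range. Chance alone marks about 1 in 20 such groups. Hk1 in the Luc arm was at 27.3 FPKM in Luc 8 and at 44.1 to 45.8 FPKM in the other Luc libraries (gap over range 0.909). Pfkp in the cFos arm was at 17.8 FPKM in cFos 12 and at 13.1 to 13.7 FPKM in the others (0.887).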

How the results depend on the processing

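Pairing by clone (the replicate block) moved the genes risen from 326 to 503, the genes fallen from 293 to 478, and the members risen from 0 to 2. In the other lists the block gave 1 glycolysis and pyruvate gene risen and 1 fallen, and 6 other hypoxia genes risen (from 4) and 3 fallen (from 0). It also gave Eno1b a call. No call of the pooled fit was lost by a member, Bhlhe40, Bhlhe41 or Insig2. Leaving out 1 library at a time gave 150 to 319 genes risen and 85 to 295 fallen, 0 to 1 members risen and 0 to 1 fallen, 0 to 1 members differing between clones, 0 to 1 other glycolysis genes risen, and 2 to 4 other hypoxia genes risen and 0 to 2 fallen. With no filter 175 genes and 0 members fell, with more genes tested. Without clones 2 and 4, 100 and 114 genes rose. Without clones 2, 4, 8 and 12, 65, 41, 190 and 175 genes fell, and 1, 2, 2 and 2 other hypoxia genes rose. Without clone 2, 4 or 8, 0 members fell, and without clone 8, 1 rose. Without clone 8 or 12, 1 other hypoxia gene fell. Fewer libraries enter these fits. All of them are pooled fits, and the fit with the block was not repeated with libraries or clones left out. Besides Ldhb, members called in single settings were Pfkp without Luc 12 (limma adjusted p = 0.0437), Pfkfb4 without cFos 8 (0.0317) and Ndrg1 without Luc 8.

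Signs reversed for 5 members, none of them called. Pfkl ran from -0.10 to 0.38 leaving out 1 library and was -0.12 without clone 8. Pfkfb3 ran from -0.24 to 0.19 and was 0.0131 with median scaling, 0.0178 with quantile normalization, 0.0026 with the largest entry and 0.16 without clone 8. Egln3 ran from -0.66 to 0.20 and was 0.0638 without clone 4. P4ha2 ran from -0.25 to 0.13, and was 0.0808 without clone 4 and 0.0068 without clone 8. Vegfa ran from -0.0314 to 0.20, and was -0.0789 with the largest entry and -0.0591 without clone 12. The cause was not tested. The median of the members stayed above 0 in every setting (0.28 without clone 8 to 0.67 without Luc 4). Leaving out clones 2, 8 and 12, and summing Eno1 with Eno1b, were chosen after seeing the data.

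Each arm has 4 libraries and the files give no counts, which limits precision. For isozyme ratios, exchange within clones gives no p under 0.125 and 3 against 4 libraries none under 0.0571, so those alternatives cannot pass.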
